A study of Mus musculus with 6 samples.

Results

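The genes described here are 10 that are widely used to mark neutrophils and granulocytic myeloid cells, namely S100a8, S100a9, Csf3r, Cxcr2, Il1b, Lcn2, Ltf, Retnlg, Ly6g and Wfdc21. They were chosen by name, and each matched 1 of the 55487 gene rows of the deposited tables. The RNA came from mammary tumours of MMTV-PyMT mice, in which the mouse mammary tumour virus promoter drives the polyoma middle T oncoprotein in mammary epithelium. All 6 libraries come from mice with that transgene. Of these, 3 came from mice that took the steroidal LXR (liver X receptor) agonist DMHCA and 3 from vehicle mice, and per the labels dosing was by mouth in gel cups without a break from 6 weeks of age in both groups. The labels give neither the age at collection nor whether each tumour is from a different mouse, and the titles of a group share 1 code, so a shared source cannot be told apart from treatment and p-values measure only the spread between these samples. The libraries held between 36577451 and 42595799 expected counts. The summed level of 10 luminal epithelial markers ran from 3165 to 3720 TPM (transcript abundance scaled to gene length and library size, which allows levels of different genes to be set side by side).

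Neutrophils are short-lived granulocytes that leave the marrow under granulocyte colony-stimulating factor (G-CSF) and enter tissue along gradients of CXCR2 ligands. They carry large stores of calprotectin (S100A8 and S100A9) in the cytosol and of lipocalin 2 and lactoferrin in their specific granules. In mammary tumours they and related immature myeloid cells are studied for their part in immune suppression and metastasis. Several of the 10 genes are not restricted to them. Lcn2 and Ltf are made by mammary epithelium, Ltf as a milk protein, S100a8 and S100a9 by many epithelia under stress, Il1b by macrophages, and Csf3r by monocytes as well. Ly6g, Retnlg and Cxcr2 are the members most restricted to neutrophils in mice.

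The upstream sequences of 4 members, whose products are released antimicrobial proteins, are shown because these were the 4 highest of the 10 by median TPM. The last of them, S100a9, was above the next gene, Il1b, in 4 of 6 libraries only. Each sequence is given 5′ to 3′ on the gene's strand and begins 250 bases before the RefSeq start (build GRCm38.p6). It ends just before the first base of the gene's first listed GENCODE transcript or just before the RefSeq start, whichever comes first. Other GENCODE transcripts of Lcn2 and Ltf begin further 5′. The whole Lcn2 stretch and the end of the Ltf stretch therefore lie inside the annotated genes. Capitals mark matches, on either strand, to the C/EBP core TTNNGNAA, the PU.1 core AGGAAG or the nuclear receptor half-site AGGTCA, which did not overlap one another in these 4 genes.
S100a8, chr3:90668821-90668977, plus strand: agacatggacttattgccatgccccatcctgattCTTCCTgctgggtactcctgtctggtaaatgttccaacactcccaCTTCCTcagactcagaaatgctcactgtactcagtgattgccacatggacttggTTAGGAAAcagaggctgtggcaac
S100a9, chr3:90695722-90695971, minus strand: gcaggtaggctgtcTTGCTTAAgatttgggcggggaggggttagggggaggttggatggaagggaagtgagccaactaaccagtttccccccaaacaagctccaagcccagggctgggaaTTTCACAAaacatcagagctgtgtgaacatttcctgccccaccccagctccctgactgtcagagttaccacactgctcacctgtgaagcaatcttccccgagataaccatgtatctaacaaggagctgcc
Lcn2, chr2:32387798-32387989, minus strand: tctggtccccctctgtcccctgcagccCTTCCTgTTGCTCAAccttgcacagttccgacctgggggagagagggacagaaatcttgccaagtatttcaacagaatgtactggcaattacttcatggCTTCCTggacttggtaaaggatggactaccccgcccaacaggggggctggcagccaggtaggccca
Ltf, chr9:111019042-111019291, plus strand: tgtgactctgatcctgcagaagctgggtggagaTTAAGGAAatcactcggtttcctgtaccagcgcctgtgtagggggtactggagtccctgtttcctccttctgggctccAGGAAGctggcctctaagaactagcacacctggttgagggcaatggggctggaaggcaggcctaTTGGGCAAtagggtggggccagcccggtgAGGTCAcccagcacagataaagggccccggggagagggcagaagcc
RefSeq promoters were found for 9 of the 10 genes, all but Wfdc21. Over the whole 250 bases, the C/EBP core, bound by factors that direct granulocyte maturation, was present in 7 of the 9 genes and in 36.8% of 32817 promoter windows of the same length. The PU.1 core was present in 6 of 9 and in 29.5% of all windows. The half-site was present in 4 of 9, Ltf among them, and in 14% of all windows. An exact-letter form of the LXR element, a pair of AGGTCA half-sites in the same direction spaced by 4 bases, was in 0 of the 9 genes. It was in 0.0152% of all windows. The NF-kappaB motif (GGGA, any base, TT, any base, CC) was in 0 of 9 and 0.981%. Letters this rare over all windows are seldom met in 9 genes, so their absence tells nothing about other forms of these elements. The TATA box, TATAAA, was present in 3 of 9 and in 12.4%. These matches describe letters in the windows and not bound sites.

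The levels of the 10 genes spanned the whole range of the libraries, from one of the most abundant transcripts of the tumours to a gene without a read. By median TPM over the 6 libraries the order was Lcn2 (6673), Ltf (562), S100a8 (67.8), S100a9 (4.17), Il1b (3.21), Wfdc21 (2.84), Csf3r (1.09), Retnlg (0.09), Cxcr2 (0.06) and Ly6g (0). The ranges of Lcn2, Ltf and S100a8 each lay apart from that of the next gene in the order. S100a9 and Il1b, Il1b and Wfdc21, Wfdc21 and Csf3r, and Retnlg and Cxcr2 each held their order in 4 of 6 libraries only, so these neighbours did not differ beyond their spread. Csf3r was above Retnlg in every library, with ranges apart.

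**Figure D1:**
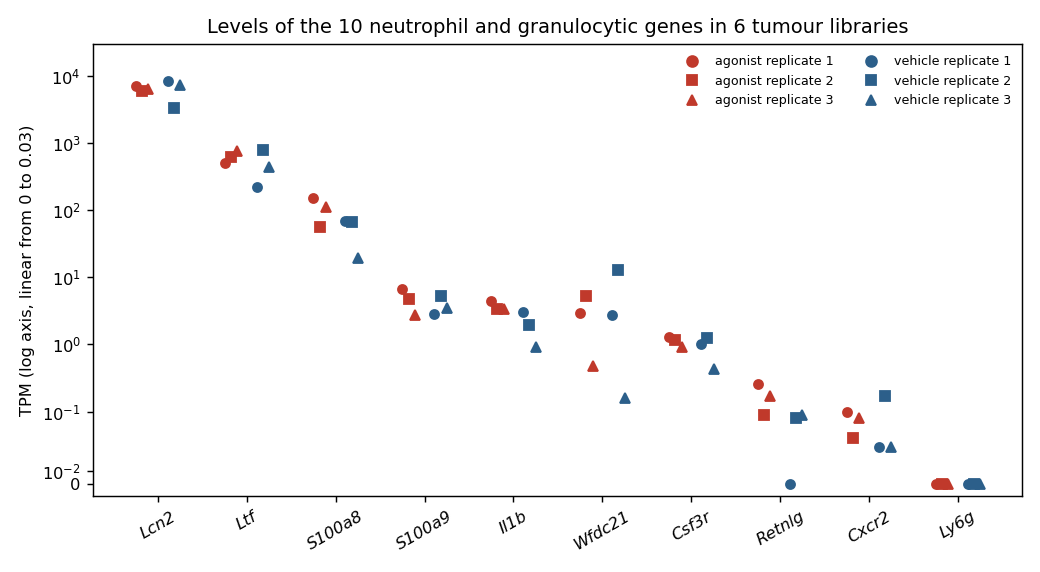
TPM of the 10 genes in each of the 6 libraries, ordered by their median, on a log axis that is linear between 0 and 0.03. Red symbols are agonist and blue symbols vehicle libraries, 1 symbol shape per replicate number. Lcn2 lies between 3386 and 8513 TPM in all libraries, while Ly6g is at 0 in all 6.

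The surface marker Ly6g, the antigen by which mouse neutrophils are usually sorted (chromosome 15, 75155240 to 75159126, plus strand), had 0 counts in all 6 libraries. At these depths 3 counts, the limit that a count of 0 allows, correspond to between 0.0704 and 0.082 CPM (counts scaled to library size). For this limit alone the plain library totals were used. These limits cover counting error alone. Ly6g has close relatives in the Ly6 family, and reads that match several copies may be assigned to another. Retnlg, which encodes a resistin-like protein of mouse granulocytes, had 3, 1 and 2 counts in agonist replicates 1 to 3 and 0, 1 and 1 counts in the vehicle replicates. The agonist to vehicle ratio of its summed counts, 6 against 2, was 3.13 with an exact 95% interval from counting error of 0.56 to 31.7. Cxcr2, the chemokine receptor for neutrophil recruitment (chromosome 1, 74153989 to 74161246, plus strand), had 10, 3 and 9 counts with agonist and 3, 19 and 3 with vehicle. Its ratio, 22 against 25 counts, was 0.918 (0.493 to 1.7). These 3 genes did not pass the low-count filter of the edgeR test, so no test is given for them. The counting intervals of Retnlg and Cxcr2 both include a ratio of 1, and that of Cxcr2 is the narrower.

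Other genes known from neutrophils covered a wide range of levels. On a list of 40 such genes, 39 were found, and 22 of these had a median under 1 TPM. Granule genes of maturing neutrophils were among these 22, with Mpo (myeloperoxidase) at a median of 0.16 TPM, Elane (neutrophil elastase) at 0.02, and Camp (cathelicidin) and Ngp at 0. Camp reached at most 7 counts in any library and Ngp 1. At the other end stood G0s2, a lipase inhibitor also known from fat and liver (median 254 TPM), the secreted glycoprotein gene Lrg1 (195), the peptidoglycan-binding protein gene Pglyrp1 (90.4), Hp (haptoglobin, 47.6) and the protease inhibitor gene Slpi (33.4). Prtn3, the proteinase 3 gene that maturing neutrophils use beside Elane and Mpo, was at 21.8 TPM, with 9.07 TPM in its lowest library, whereas Elane reached at most 0.29 and Mpo at most 0.56. The levels of the 10 genes are therefore given by gene and are not read as an amount of neutrophils. In bulk tumour RNA, fewer cells of a type and less RNA per cell cannot be told apart.

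**Figure D2:**
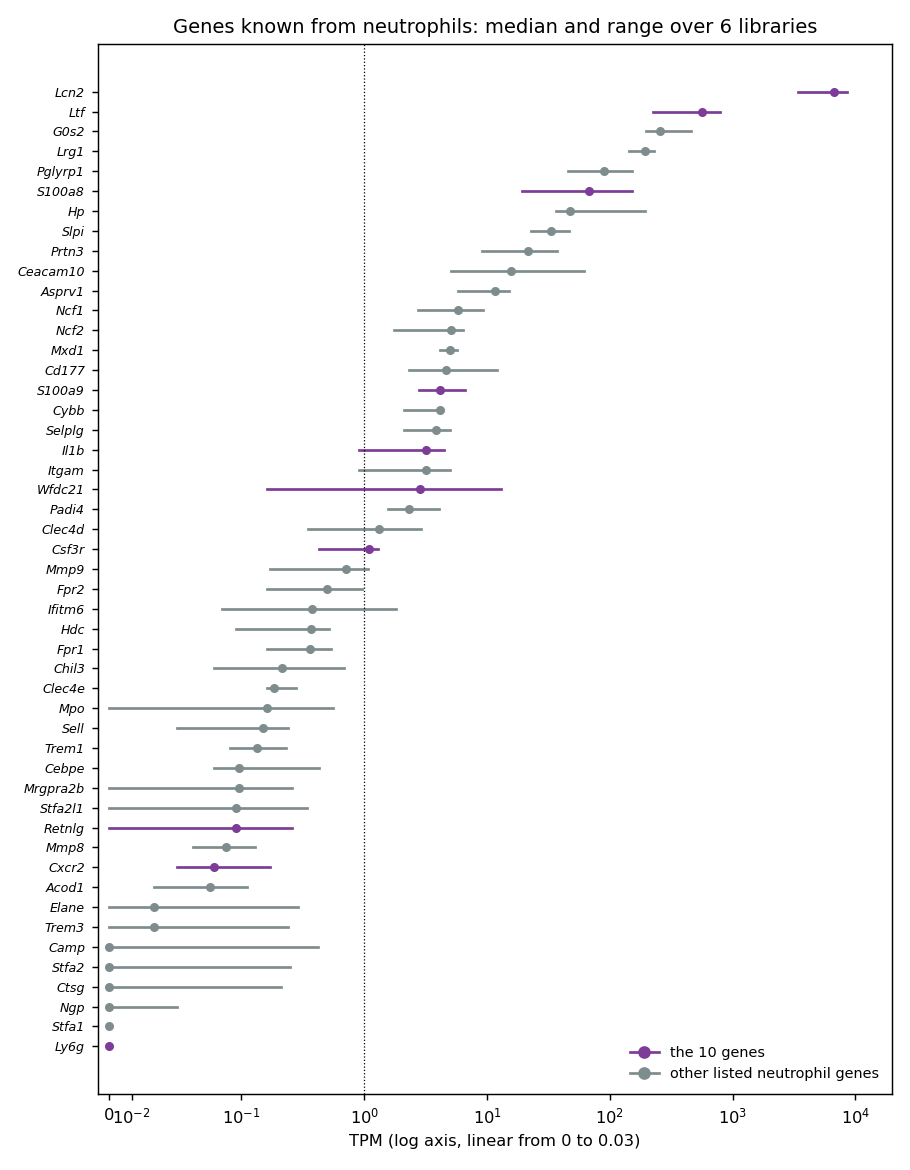
Median (point) and range (line) of TPM over the 6 libraries for the 10 genes (purple) and 39 other genes known from neutrophils (grey), on a log axis that is linear between 0 and 0.03, with a dotted line at 1 TPM. Of the grey genes 22 have a median under 1 TPM, and Ly6g and Stfa1 are at 0 in all libraries.

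Across all 17396 tested genes the edgeR quasi-likelihood test called 0 at a Benjamini-Hochberg adjusted p under 0.05, which is 0% of them, and the smallest adjusted p was 0.99. Of the 10 genes, 7 passed the low-count filter and 0 were called, with 0 also at an unadjusted p under 0.05 by edgeR, where 3.09% of all genes lay. DESeq2 had S100a8 alone of the 7 at an unadjusted p under 0.05 (3.84% of all genes), limma-trend on log2(TPM + 1) had Il1b alone (2.26% of all genes), and limma-voom had 0 (6.96% of all genes). After adjustment these called 0 of the 7, and over all genes DESeq2 called 4 (0.0231%) and both limma fits 0. The log2 fold change, agonist minus vehicle, was positive for 6 of the 7 and negative for 1, with a median of 0.21. Over all tested genes 49.3% were positive and the median was -0.0049.

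**Figure D3:**
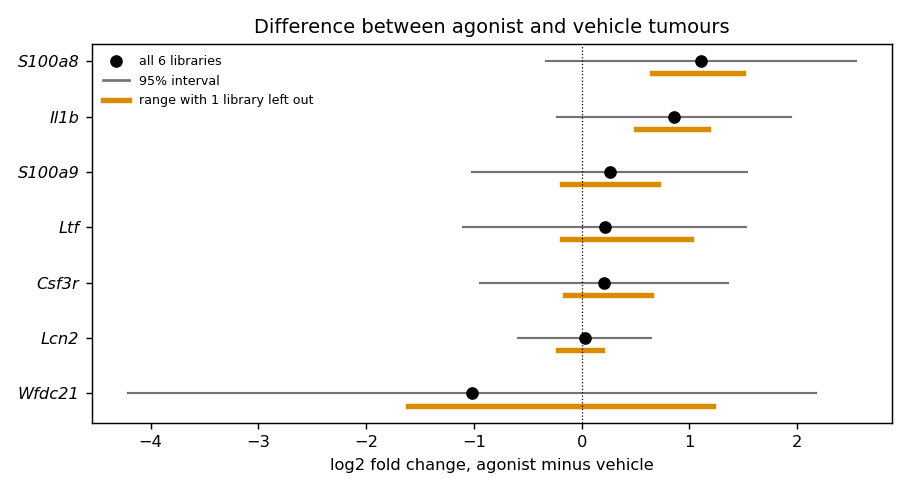
Log2 fold change of the 7 tested genes, agonist minus vehicle, from the edgeR fit (black points) with 95% intervals (grey) and the range over fits that leave out 1 library each (orange). All intervals include 0, and the ranges of S100a8 (0.66 to 1.5) and Il1b (0.50 to 1.17) stay above it.

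Among the calprotectin genes, S100a8 was far above its partner. S100a8 (chromosome 3, 90668978 to 90670035, plus strand) had 151, 55.8 and 113 TPM in agonist replicates 1 to 3 and 69.9, 65.7 and 19.1 TPM in the vehicle replicates. Agonist replicates 1 and 3 were above all vehicle libraries, agonist replicate 2 was below vehicle replicates 1 and 2, and vehicle replicate 3 was the lowest of the 6. Mean CPM were 21.6 ± 11.7 in the agonist and 10.04 ± 5.74 in the vehicle libraries (SD, n = 3). The log2 fold change was 1.11 ± 0.60 (SE, with a 95% interval of -0.33 to 2.55; edgeR adjusted p = 0.99, unadjusted p = 0.111). With 1 library left out it ran from 0.66 (agonist replicate 1) to 1.5 (vehicle replicate 2).

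S100a9 (chromosome 3, 90692632 to 90695721, minus strand), whose product pairs with S100A8 in the calprotectin dimer, had 6.67, 4.80 and 2.77 TPM with agonist and 2.83, 5.35 and 3.53 TPM with vehicle, with groups that overlapped. Its counts were low, between 23 and 60 per library. Its log2 fold change was 0.26 ± 0.55 (-1.02 to 1.54; edgeR adjusted p = 0.99), and it turned to -0.18 without agonist replicate 1 and to -0.0099 without vehicle replicate 1. The ratio of S100a8 to S100a9 TPM was 22.7, 11.6 and 40.8 with agonist and 24.7, 12.3 and 5.42 with vehicle. S100a8 was thus the more abundant of the pair in every library, by a factor that varied between libraries and overlapped between the groups. The abundance-weighted transcript length that the deposited tables give for S100a8 lay between 486.04 and 486.15 bases. The coding transcript S100a8-201 is 486 bases long and the intron-retaining S100a8-202 is 498, so nearly all S100a8 reads were assigned to the coding transcript.

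Of the granule and secreted defence genes, Lcn2 was the most abundant. Lcn2 encodes lipocalin 2, which withholds iron from bacteria by binding siderophores, and lies on chromosome 2 (32384633 to 32388252, minus strand). It had 6989, 5993 and 6357 TPM in the agonist libraries and 8513, 3386 and 7431 TPM in the vehicle libraries. It ranked between 11th and 36th of all gene rows by TPM and made up 0.339% to 0.851% of the TPM of a library. The vehicle replicates enclosed all 3 agonist libraries, and vehicle replicate 2 was the lowest of the 6. The means were 3801 ± 541 CPM in agonist and 3727 ± 1204 CPM in vehicle libraries, and the log2 fold change was 0.0283 ± 0.27 (-0.59 to 0.65; edgeR adjusted p = 0.996). Its sign turned when vehicle replicate 2 (-0.22) or agonist replicate 1 (-0.085) was left out, and under limma-voom (-0.0243). The interval leaves room for a log2 change between -0.59 and 0.65, so Lcn2 is not shown to be equal in the groups. Lcn2 exceeded Csf3r by between 2687 and 17281 times in TPM within a library. The summed luminal marker level was lower with agonist (3165 to 3543 TPM) than with vehicle (3613 to 3720 TPM), without overlap. Of the 10 luminal genes, 2 had a log2 fold change above 0 and 8 below (median -0.21), and edgeR called 0. Krt18 alone of them had groups apart in CPM (-0.17), lower with agonist, as 4.22% of all tested genes were. Lcn2 TPM was 215%, 169% and 201% of the summed luminal level with agonist and 236%, 93.4% and 200% with vehicle, with groups that overlapped. The part of the summed luminal level in the Lcn2 values was not tested.

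Ltf encodes lactoferrin, an iron-binding protein of milk and of specific granules (chromosome 9, 111019271 to 111042767, plus strand). It had 507, 618 and 751 TPM with agonist and 224, 790 and 434 TPM with vehicle. The vehicle libraries again enclosed the agonist libraries, here with vehicle replicate 2 the highest and vehicle replicate 1 the lowest. The means were 733 ± 134 CPM in agonist and 633 ± 484 CPM in vehicle libraries (log2 fold change 0.21 ± 0.55, -1.10 to 1.53; edgeR adjusted p = 0.99). It was at -0.18 without vehicle replicate 1 and at 1.01 without vehicle replicate 2. GENCODE lists 12 Ltf transcripts, and the weighted length of 1436 to 1723 bases was far below the 2743 bases of the full Ltf-201, so part of the reads was assigned to short models and the TPM of Ltf depends on that assignment. Lcn2 and Ltf had opposite extremes, as vehicle replicate 1 was the highest for Lcn2 and the lowest for Ltf, and vehicle replicate 2 the reverse. The Lcn2 to Ltf ratio in TPM ran from 4.29 in vehicle replicate 2 to 38.1 in vehicle replicate 1, with 8.46 to 13.8 in the agonist libraries. Agonist replicate 2, in which a list of 9 exocrine gland genes summed to 4603 TPM against 25.5 to 257 TPM in the other libraries, was not an extreme for either gene.

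Wfdc21, a small secreted protein gene of the whey acidic protein domain family (chromosome 11, 83746940 to 83752642, plus strand), varied most. It had 2.96, 5.32 and 0.48 TPM with agonist and 2.72, 13.1 and 0.16 TPM with vehicle, with 1 to 87 counts per library. Vehicle replicate 2 was 93.2 times vehicle replicate 3 in CPM, and the agonist libraries lay between these. The log2 fold change was -1.02 ± 1.34 (-4.21 to 2.18; edgeR adjusted p = 0.99) and turned to 1.22 without vehicle replicate 2.

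**Figure D4:**
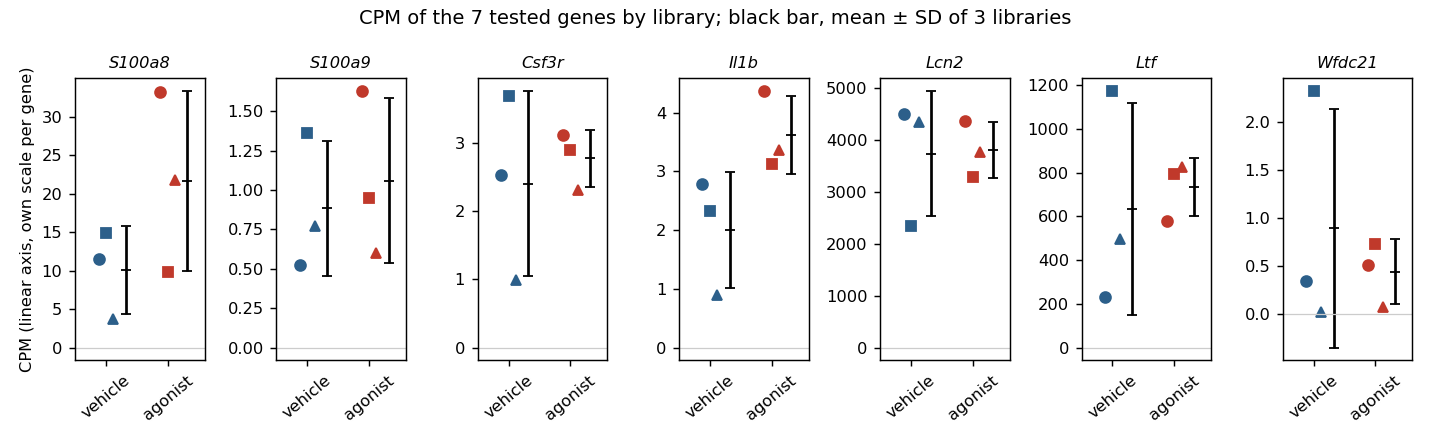
CPM of the 7 tested genes in each library, on a linear axis with its own scale per gene. Symbols are libraries as in the plot of TPM, and black bars are the mean ± SD of 3 libraries. The groups do not overlap for Il1b (agonist 3.12 to 4.36, vehicle 0.895 to 2.78 CPM), and overlap for the other 6 genes.

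Il1b, the gene of the inflammatory cytokine interleukin-1 beta (chromosome 2, 129364570 to 129371139, minus strand), was the only one of the 7 whose groups did not overlap. It had 161, 128 and 141 counts with agonist and 122, 87 and 36 with vehicle, or 4.36, 3.12 and 3.37 CPM against 2.78, 2.32 and 0.895 CPM. Every agonist library was above every vehicle library, and the closest pair was agonist replicate 2 and vehicle replicate 1. The means were 3.62 ± 0.656 and 1.997 ± 0.983 CPM, giving a log2 difference of 0.85 ± 0.47 (-0.23 to 1.94; edgeR adjusted p = 0.99, unadjusted p = 0.107). With 1 library left out it ran from 0.50 (vehicle replicate 3) to 1.17 (vehicle replicate 1). Groups that did not overlap with agonist higher were found for 3.02% of all tested genes, and a single gene of 7 does not set the members apart from that background. An antisense gene, Il1bos, shares 25 of 1907 exon bases with Il1b and had 4 to 24 counts, and the strand setting is not given in the sources used here.

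Csf3r, the receptor for G-CSF (chromosome 4, 126024550 to 126044440, plus strand), had 115, 119 and 97 counts with agonist and 111, 139 and 40 with vehicle. In CPM these were 3.12, 2.90 and 2.32 against 2.53, 3.70 and 0.995, so that vehicle replicate 3 stood below the other 5 libraries and vehicle replicate 2 was the highest. The log2 fold change was 0.21 ± 0.50 (-0.95 to 1.36; edgeR adjusted p = 0.99), and -0.16 without vehicle replicate 3.

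Vehicle replicate 3 was the lowest library for S100a8, Csf3r, Il1b and Wfdc21, and it was also the lowest for leukocyte genes as a whole. The 6 general leukocyte genes (Ptprc, Itgb2, Cd52, Laptm5, Coro1a and Cd53) summed to 88.9 to 106 TPM in the agonist libraries and to 95.6, 132 and 35.9 TPM in vehicle replicates 1 to 3. The 12 macrophage genes, of which 0 were at 0 in all libraries, summed to 793 to 870 TPM with agonist and 348 to 1172 with vehicle. The 6 monocyte genes summed to 29.9 to 38.0 against 12 to 50.9 TPM, and the 10 eosinophil, mast cell and basophil genes to 4.87 to 7.22 against 0.58 to 8.40 TPM, with Prg2 at 0 in all libraries. The 8 fibroblast genes also ran from 176 TPM in vehicle replicate 3 to 1701 TPM in vehicle replicate 2. Of the other marker sums, 6 basal epithelial genes ran from 131 to 304 TPM with agonist and from 41.2 to 146 with vehicle, and 9 keratinocyte genes from 8.3 to 12.6 TPM over all libraries. The 6 plasma cell genes summed to 34.9 to 140 TPM with agonist and 42.4 to 61.1 TPM with vehicle, and edgeR called 0 of them, with a median log2 fold change of 1.7. Within that list Igkc, Jchain and Igha were higher in every agonist than in every vehicle library, as were 3.02% of all tested genes. Igkc had 8.32, 52.9 and 5.54 TPM against 0.57, 2.53 and 0.75 TPM (3.91 ± 1.09, unadjusted p = 0.00889, edgeR adjusted p = 0.99), with agonist replicate 2 the highest for all 3 genes. Derl3, at 16.3 to 56.7 TPM, made up much of the sum. The groups overlapped for Derl3 (log2 fold change -0.29), Ighm (-0.35) and Mzb1 (0.53). Over all libraries 5 erythroid genes from 1243 to 4871 TPM and 5 platelet genes from 9.7 to 31.9 TPM, both with overlap between the groups. The part of these cells in the differences of the 10 genes was not tested.

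Set against the general leukocyte sum, Csf3r was spread over a narrower range than on its own. Csf3r TPM was 1.45%, 1.11% and 0.903% of that sum with agonist and 1.06%, 0.953% and 1.2% with vehicle, and vehicle replicate 3 lay within the agonist range. Il1b was 5.02%, 3.16% and 3.43% of the sum with agonist and 3.19%, 1.48% and 2.51% with vehicle. The Il1b groups, apart in CPM, overlapped on this scale by the margin between agonist replicate 2 and vehicle replicate 1. S100a8 was 170%, 52.4% and 113% of the sum with agonist and 73.2%, 49.7% and 53.3% with vehicle, so vehicle replicate 3 was not the lowest there. Against the summed luminal level, S100a8 was 4.66%, 1.58% and 3.57% with agonist and 1.94%, 1.81% and 0.515% with vehicle. On that scale vehicle replicate 3 remained the lowest. Lcn2, with 7431 TPM in vehicle replicate 3, was above all 3 agonist libraries there. The macrophage and fibroblast sums were also lowest in vehicle replicate 3 and were not used as scales for Csf3r. The part of any of these sums in the values of the genes was not tested.

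**Figure D5:**
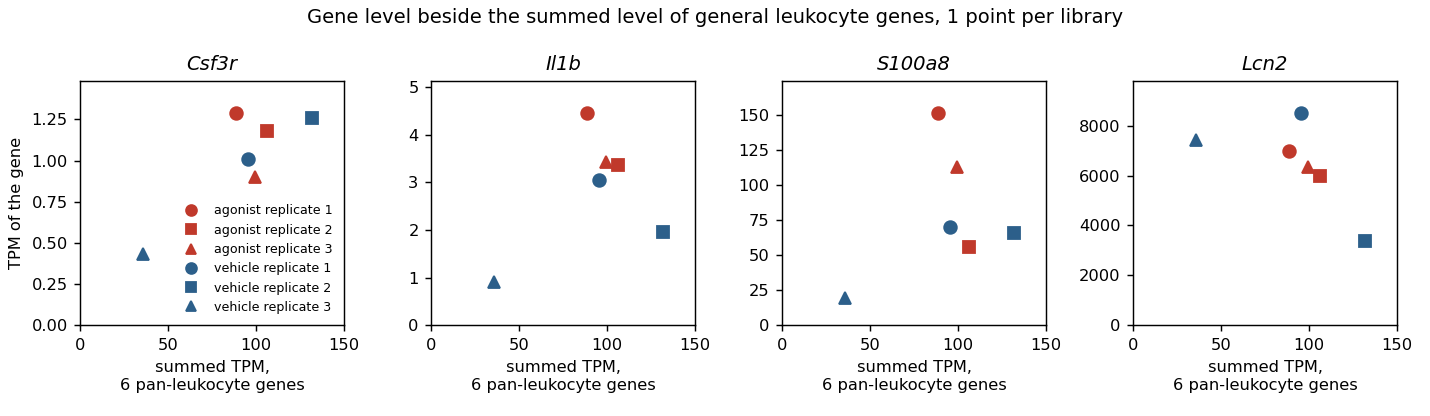
TPM of Csf3r, Il1b, S100a8 and Lcn2 (vertical axes, linear, own scale) beside the summed TPM of 6 general leukocyte genes (horizontal axis) in each library, with red agonist and blue vehicle symbols. Vehicle replicate 3, at a leukocyte sum of 35.9 TPM, is the lowest library for Csf3r, Il1b and S100a8 but not for Lcn2.

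The genes whose centred log2 CPM over the 6 libraries lay closest to a member were named by root mean square distance among genes with a mean log2 CPM of at least 1. For Csf3r they were Klhl6, Fxyd5 and Trpv2, at distances of 0.0499, 0.0608 and 0.0941 where Csf3r itself deviated by 0.593. For Ltf they were Dmkn (0.115), C4b (0.203) and Klf15 (0.221), against an own deviation of 0.736. For Lcn2 they were Trpt1 (0.0987), Dnd1 (0.101) and 5830448L01Rik (0.102), against 0.331. For S100a8 they were Ccn4, Snai2 and Gm14418 (0.278 to 0.316, against 0.983), and for Il1b Rgs1, Mmp11 and Atp8b1 (0.247 to 0.261, against 0.705). The nearest genes of the 5 members were all different. These distances describe 6 libraries and carry no test.

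The signals that act on neutrophils were measured as a list of 20 recruitment and survival genes, of which 13 were tested. The log2 fold change was above 0 for 8 and below 0 for 5, with a median of 0.13, and edgeR called 0. Csf3, which encodes G-CSF, the ligand of the Csf3r product, had 0.64, 3.05 and 2.92 TPM in agonist and 0.59, 1.31 and 0.43 TPM in vehicle libraries, with a log2 fold change of 1.37 ± 0.72 (unadjusted p = 0.0919, edgeR adjusted p = 0.99). Its groups overlapped through agonist replicate 1. Of the CXCR2 ligands, Cxcl1 had 12.7 to 13.9 TPM with agonist and 11.6, 5.35 and 12.1 TPM with vehicle (0.45 ± 0.32, edgeR adjusted p = 0.99), and all 3 agonist libraries lay above the vehicle libraries in TPM but overlapped them in CPM. Cxcl2 was at 0.30 to 1.23 TPM in the 6 libraries (0.61 ± 0.61).

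Of the interleukin-1 pathway all 13 genes were tested, with 4 above 0, 9 below 0, a median of -0.0818 and 0 called by edgeR. The co-receptor gene Il1rap had 22.9, 24.0 and 18.2 TPM with agonist and 13.9, 14.6 and 19.2 TPM with vehicle (0.41 ± 0.19, unadjusted p = 0.0618, edgeR adjusted p = 0.99), and agonist replicate 3 was below vehicle replicate 3. The kinase gene Irak4 (-0.29 ± 0.21) and the receptor gene Il1r1 (0.50 ± 0.58) also had overlapping groups. Among 9 genes for receptors of the members' products, 7 were tested, 5 above 0 and 2 below (median 0.098), and edgeR called 0. Slc22a17, which encodes a lipocalin 2 receptor, had 39.3 to 41.1 TPM with agonist and 62.4, 23.7 and 74.1 TPM with vehicle (-0.48 ± 0.31, edgeR adjusted p = 0.99). In TPM, vehicle replicate 2 was the lowest library and the other 2 vehicle libraries the highest, as they were for Lcn2. Bsg, whose product basigin binds S100A9, was at 534 to 908 TPM (-0.29 ± 0.19).

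The remaining neutrophil-associated genes had 24 tested genes, 17 above 0 and 7 below, a median of 0.19 and 0 called by edgeR. Of the 20 epithelial acute phase and milk defence genes, some of them on both lists, all were tested, 12 lay above 0 and 8 below (median 0.0683), and edgeR called 0. Slpi, which encodes the secretory leukocyte protease inhibitor, had 41.1, 39.3 and 46.8 TPM with agonist and 25.5, 27.4 and 23.0 with vehicle, without overlap (0.71 ± 0.24, unadjusted p = 0.0173, edgeR adjusted p = 0.99). Lrg1 ran the other way, with 163, 172 and 144 TPM against 224, 228 and 217 TPM, also without overlap (-0.53 ± 0.16, unadjusted p = 0.0128, edgeR adjusted p = 0.99). Lalba, which encodes the milk protein alpha-lactalbumin, had 731, 788 and 386 TPM with agonist and 1212, 1105 and 1186 TPM with vehicle (-0.90 ± 0.27, unadjusted p = 0.0102, edgeR adjusted p = 0.99), without overlap. Groups without overlap made up 4.22% of all tested genes with agonist lower and 3.02% with agonist higher. By edgeR, 3.09% of all tested genes had an unadjusted p under 0.05. Pglyrp1 had 153, 135 and 79.1 TPM with agonist and 64.5, 45.9 and 102 TPM with vehicle (0.80 ± 0.34, unadjusted p = 0.0493, edgeR adjusted p = 0.99), with agonist replicate 3 below vehicle replicate 3.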

How the data were processed

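The authors deposited 1 RSEM table per library, 6 in all. Per the file headers these hold expected counts (estimated reads per gene), TPM and the abundance-weighted transcript length in bases, which was used here to describe S100a8 and Ltf. The deposited FPKM were not used. Listed in the submitters' processing notes are the build GRCm38 and RSEM 1.3.1, STAR 2.7.9a, cutadapt 3.5, FastQC 0.11.9, R 4.1 and DESeq2 1.36.0. Annotation release, strand setting and read filters were not given in the sources used here. Positions are from GENCODE M21 (GRCm38), in which the identifiers of all 10 genes were found.

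Expected counts, of which between 10.1% and 10.5% per library were not whole, were rounded and tested with edgeR 4.0.16 in R 4.3.3 (TMM, filterByExpr with minimum count 10 and minimum total 15, robust quasi-likelihood F test of group, no covariates), with Benjamini-Hochberg adjustment over all 17396 genes and a threshold of 0.05. The fit was also run on counts simulated from its own dispersions with independent libraries. That run checks the code and cannot show the effect of a shared source within a group. CPM divide each count by the TMM-adjusted library total, except for the limit given for Ly6g, which uses plain totals. SE is the log2 fold change over the root of F, and SD is over the 3 libraries of a group. Same-numbered libraries were not treated as pairs, because no label ties the numbers. The 10 genes and the 5 related and 12 marker lists were chosen with earlier results of these data known. Genes of a related list were named if called, or else as the 3 with the smallest unadjusted p, and other list genes were named after their values were seen. One listed neutrophil gene was not found by its symbol. Alternatives used DESeq2 1.42.0 and limma 3.58.1 (voom with sample weights; limma-trend with pseudocounts of 1 and 0.1 TPM), other scalings and filters, no robust estimation, a replicate block and each library left out.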

Additional observations from a re-analysis of the deposited data

How the results depend on the processing

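Among the 7 tested genes 0 were called in any alternative. Over all genes 0 were called in the main test and in every alternative but the DESeq2 Wald test, which called 4. The count at an unadjusted p under 0.05 was 538 in the main test and ran from 315 (without agonist replicate 3) to 2442 (without vehicle replicate 2). With 1 library left out 0 genes were called each time, and the members' median log2 fold change ran from 0.0879 to 0.96 (the latter without vehicle replicate 2). These medians are over the members that passed the filter in each fit, 7 or 8 of them, so the sets differ. In the other alternatives the members' median lay between 0.20 and 0.41. The sign turned for Csf3r (-0.16 without vehicle replicate 3), Lcn2 (-0.22 without vehicle replicate 2, -0.085 without agonist replicate 1, -0.0243 with limma-voom), Ltf (-0.18 without vehicle replicate 1), S100a9 (-0.18 and -0.0099 without agonist or vehicle replicate 1) and Wfdc21 (1.22 without vehicle replicate 2). With libraries left out, the highest values were 0.65 for Csf3r, 0.19 for Lcn2, 1.01 for Ltf and 0.70 for S100a9, and the lowest for Wfdc21 was -1.61. S100a8 (0.66 to 1.5) and Il1b (0.50 to 1.17) stayed positive with any library left out and in the other alternatives (1.10 to 1.3 and 0.74 to 1.03). The causes of these shifts were not tested. With the replicate number as a block 0 genes were called and 488 had an unadjusted p under 0.05, against 538 without it, and the members' median was 0.38. The deviations of same-numbered libraries from their group means correlated at 0.17, 0.0377 and 0.0628, and not every library correlated best with its own number, so the numbers were not taken as pairs. The stricter filter left 5 of the 10 genes and no filter left 9. Low counts limit the precision for Retnlg and Cxcr2, with at most 19 in a library, and for S100a9 and Wfdc21, with at most 87. Why Ly6g had 0 counts was not tested.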
